A study of Mus musculus with 20 samples.

Results

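The genes described here are 9 that skeletal muscle is known to control by nerve activity or to use during wasting: the regulators Hdac4 and Dach2, the transcription factors Foxo1, Foxo3 and Runx1, the stress gene Gadd45a, the surface molecule Ncam1, and the ubiquitin ligase genes Trim63 and Fbxo32. They were taken by symbol from a table of counts for 26722 genes. Of the 9 genes, 8 had a row, and Dach2 was not analysed here. All 8 passed the filter on low counts that left 14605 genes for testing.

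The libraries were made from C2C12 cells, mouse myoblasts that fuse into long, multinucleated myotubes when serum is lowered, here by 5 days in 2% horse serum. Myotubes were then treated for 16 hours in 5 ways, with 4 biological replicates of each, 20 libraries in all. MuSK is the receptor tyrosine kinase through which the nerve factor agrin organises the neuromuscular junction. Total RNA was depleted of ribosomal RNA and sequenced in pairs of 150 bases. Control myotubes received 7.7 nM of b12, a human IgG4 antibody used as the negative control. The bivalent group received 7.7 nM of 13-3B5, a human IgG4 labelled as activating MuSK. The agrin group received 0.1 nM of neural agrin with 7.7 nM of b12. The other 2 groups received the same agrin with 7.7 nM of 13-3B5xb12 or of 11-3F6xb12, monovalent antibodies labelled as inhibiting MuSK. Every group was thus the same cell line at one time point and carried an antibody, and the labels name no motor neurons in the cultures, so loss of a nerve was not itself part of the experiment.

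In muscle, nerve activity represses a set of genes that rise again when the nerve is cut. HDAC4, a class IIa histone deacetylase that enters muscle nuclei after denervation, represses Dach2, a corepressor that otherwise holds myogenin down, and myogenin in turn activates synaptic genes as well as Trim63 and Fbxo32. FoxO transcription factors, kept out of the nucleus by insulin and IGF signalling through Akt, drive the same 2 ligase genes: Trim63 encodes MuRF1, which marks sarcomere proteins for the proteasome, and Fbxo32 encodes atrogin-1, the substrate-binding part of an SCF ligase. Runx1, Gadd45a and Ncam1 are low in innervated fibres and rise after denervation.

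Because these factors act through DNA elements, the promoters of 3 of the genes are shown, as 250 bases up to the RefSeq transcript start (GRCm38.p6), written 5′ to 3′ on the gene's strand. Trim63 and Gadd45a are shown as genes that changed between replicates, as described further on, and Runx1 as one that did not pass that test. Capitals mark the FoxO element GTAAACA, searched on both strands and so also written TGTTTAC, and the E-box CANNTG, the kind of element that myogenin binds. Windows were read at chr4:134314870-134315119 on the plus strand for Trim63, chr6:67037408-67037657 on the minus strand for Gadd45a, and chr16:92826075-92826324 on the minus strand for Runx1, the upstream one of the 2 Runx1 windows in the table.
Trim63: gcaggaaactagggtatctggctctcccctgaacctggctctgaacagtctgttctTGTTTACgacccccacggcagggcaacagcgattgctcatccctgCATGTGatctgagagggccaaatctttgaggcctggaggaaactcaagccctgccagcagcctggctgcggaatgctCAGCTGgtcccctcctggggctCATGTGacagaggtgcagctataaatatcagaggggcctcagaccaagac
Gadd45a: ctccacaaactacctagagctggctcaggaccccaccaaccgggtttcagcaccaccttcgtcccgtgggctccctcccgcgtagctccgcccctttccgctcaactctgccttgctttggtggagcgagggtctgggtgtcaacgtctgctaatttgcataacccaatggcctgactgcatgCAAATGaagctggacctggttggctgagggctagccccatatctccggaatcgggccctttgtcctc
Runx1: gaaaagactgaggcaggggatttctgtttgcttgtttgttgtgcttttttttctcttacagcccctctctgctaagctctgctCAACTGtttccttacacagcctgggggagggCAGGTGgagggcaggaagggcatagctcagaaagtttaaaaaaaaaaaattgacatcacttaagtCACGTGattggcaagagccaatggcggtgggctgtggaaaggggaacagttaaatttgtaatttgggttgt

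The Trim63 window held 1 FoxO element, 194 bases before the start, and 3 E-boxes, at 149, 72 and 50 bases, of which the middle one read CAGCTG. In Gadd45a the only marked element was an E-box 67 bases before the start. Runx1 had 3 E-boxes, at 167, 136 and 71 bases, and no FoxO element. In the GENCODE M21 annotation the last bases of the Runx1 and Gadd45a windows lie inside the gene. The Runx1 E-box at 71 bases is in that part. Across 32851 promoter windows of the same length, 3.17% held GTAAACA, 66.2% held CANNTG and 13% held CAGCTG, so an E-box is a common match and the FoxO element an uncommon one. The shorter FoxO core AAACA, found in 46.4% of windows, lies inside the element in Trim63, was found 3 times in the Runx1 window and not in the Gadd45a window. Of the windows not shown, the other Runx1 window and those of Hdac4 and Foxo3 held neither GTAAACA nor an E-box. Foxo1 and the upstream Dach2 window held 1 E-box each and no GTAAACA, and the other Dach2 window held neither. A match describes letters in a window and not binding.

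Counts per library summed to between 18424881 and 23343903, and 3 counts corresponded to 0.125 to 0.161 CPM, which is each count per library size after TMM scaling. The cells carried the markers of their label: 11 myotube marker genes summed to between 13580 and 17716 CPM in every library, against 127 to 244 CPM for 9 genes of dividing myoblasts. The 4 leukocyte genes with a row summed to at most 1.79 CPM in a library, and of these only Ptprc stayed at 3 counts or fewer in all. A list of 8 neural genes summed to between 14.8 and 21.6 CPM. Of the 20 libraries, 3 stood apart. Replicate 1 of agrin with 13-3B5xb12 and replicate 2 of the control read long genes relatively high, by 0.316 and 0.267 log2 units per 10-fold of exon length, and replicate 3 of agrin held 25.6 CPM of liver marker genes against at most 1.04 elsewhere and had a length slope of 0.170. At the other end, replicate 4 of agrin with 13-3B5xb12 had a slope of -0.215. Differences that rest on one of these libraries are given without it beside them. There a group left with 1 library is taken to vary like the others.

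The 8 genes differed widely in level. Per kilobase of exon (GENCODE M21), Gadd45a was highest at 112 ± 14.1 CPM (SD, n = 20 libraries), followed by Ncam1 at 21.8 ± 2.42, Trim63 at 14.5 ± 4.21, Fbxo32 at 9.73 ± 1.30, Foxo3 at 7.68 ± 0.787, Runx1 at 5.01 ± 0.553, Hdac4 at 1.88 ± 0.286 and Foxo1 at 0.837 ± 0.158. Gadd45a lay above every other gene in all libraries, and the ranges of Hdac4 and Foxo1 lay apart from their neighbours. From Ncam1 to Runx1, each gene's range over libraries overlapped that of the next. Every gene was well covered, from 117 to 235 counts for Foxo1 up to 3184 to 5446 for Ncam1. Foxo1 is therefore the gene with the largest counting error. Trim63 varied most between libraries, with a coefficient of variation of 29.0% in CPM, against 10.2% for Foxo3, the least variable.

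Positions are those of GENCODE M21 on GRCm38, matched by Ensembl identifier. Hdac4 (ENSMUSG00000026313) spans chr1:91928779-92195699, Runx1 (ENSMUSG00000022952) chr16:92601466-92826149, Ncam1 (ENSMUSG00000039542) chr9:49502136-49798925, Gadd45a (ENSMUSG00000036390) chr6:67035096-67037457, Fbxo32 (ENSMUSG00000022358) chr15:58175879-58214932 and Foxo3 (ENSMUSG00000048756) chr10:42181841-42276755, all on the minus strand. On the plus strand lie Trim63 (ENSMUSG00000028834) at chr4:134315120-134329629 and Foxo1 (ENSMUSG00000044167) at chr3:52268336-52353221. Antisense genes overlap exons of Hdac4, Runx1, Ncam1, Gadd45a, Fbxo32 and Foxo1. Those with a row had at most 59 counts in a library (E230016M11Rik, beside Gadd45a), and whether counting used strand is not given in the sources used here.

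**Figure D1:**
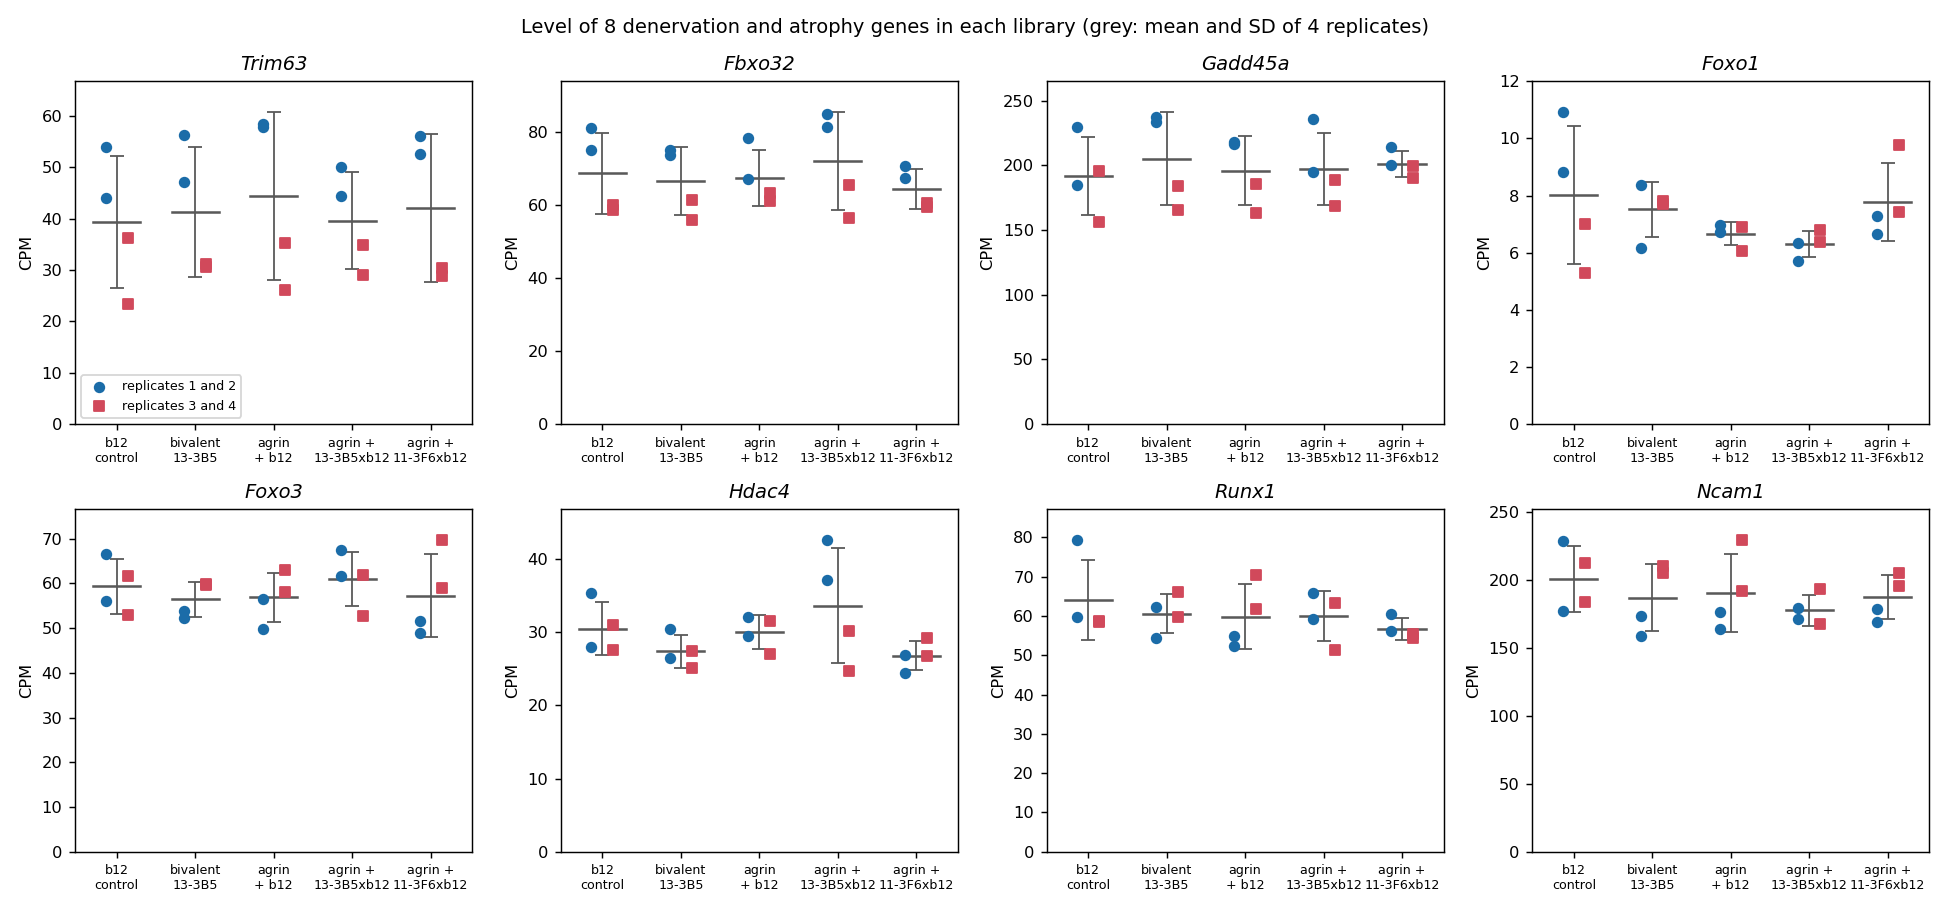
Level of each of the 8 genes in CPM (vertical axes, from 0) in the 20 libraries by treatment, with replicates 1 and 2 and replicates 3 and 4 in different markers and bars for the mean ± SD of the 4 libraries. Treatment means lie within 1.27-fold of each other for every gene, while Trim63 splits within each treatment, with replicates 1 and 2 at 43.95 to 58.5 CPM and replicates 3 and 4 at 23.5 to 36.2 CPM.

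The first question was whether activating MuSK with agrin or the bivalent antibody, or blocking agrin with a monovalent one, altered these genes. None of the 8 genes passed the threshold in any of the 8 treatment comparisons (edgeR quasi-likelihood test, Benjamini-Hochberg adjusted p, threshold 0.05). The background was the same in each, 0% of the 14605 genes. With the replicate number as a block, still 0 of the 8 genes passed, while 2 genes of all did for agrin with 11-3F6xb12 against agrin. DESeq2's Wald test likewise passed none of the 8 genes. At an unadjusted p under 0.05, the share of all genes was 2.85% for agrin against control, 2.77% for bivalent against control, 2.39% for bivalent against agrin, 3.83% and 3.33% for agrin with 13-3B5xb12 and with 11-3F6xb12 against agrin, 2.39% and 3.25% for the same 2 groups against control, and 4.22% between them. In the model with treatment alone, only 1 of the 64 values reached that level, the Hdac4 value given further on. Of the 64 values of a gene in a comparison, 59 were within 0.2 log2 units of no change, and 52 had a 95% interval inside a 1.5-fold change in both directions. In none did the 4 libraries of one treatment lie wholly above or below the 4 of the other. In the same order of comparisons, the share of all genes so separated was 1.72%, 1.88%, 2.38%, 2.31%, 2.9%, 1.64%, 2.16% and 2.72%. Comparisons share their control or agrin libraries and are not independent of each other.

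The ligase genes, the most direct readout of an atrophy response, were level across treatments. Trim63 averaged 39.4 ± 12.8 CPM in control (SD, n = 4 here and for the other treatments), 41.3 ± 12.6 with the bivalent antibody, 44.4 ± 16.3 with agrin, 39.6 ± 9.40 when 13-3B5xb12 was added to agrin, and 42.0 ± 14.4 when 11-3F6xb12 was. Agrin against control gave a log2 fold change of 0.17 ± 0.33 (SE), with an interval that reaches a 1.84-fold rise. Fbxo32 averaged 68.8 ± 11.2 CPM in control, 66.5 ± 9.35 with the bivalent antibody, 67.5 ± 7.71 with agrin, 72.1 ± 13.4 with 13-3B5xb12 added to agrin and 64.5 ± 5.47 with 11-3F6xb12 added. Its differences between treatments lay between -0.16 and 0.09 on the log2 scale, each with an SE of 0.13.

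The spread that makes Trim63 imprecise lies between replicates and not between treatments. With a term for replicates 3 and 4 against 1 and 2 in the model, the SE of its treatment differences fell from 0.33 to 0.11, and the largest of the 8 differences was 0.15 log2 units. For Fbxo32 the SE went from 0.13 to 0.073, and for Gadd45a from 0.13 to 0.080. The lowest adjusted p of any of these 3 genes in that model was 0.770 (edgeR), for Fbxo32.

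The FoxO factors also stayed within their spread. Foxo1 averaged 8.01 ± 2.42 CPM in control, 7.51 ± 0.957 with the bivalent antibody, 6.66 ± 0.407 with agrin, 6.30 ± 0.444 with 13-3B5xb12 added to agrin, and 7.78 ± 1.37 with 11-3F6xb12 added. The lowest against the control, agrin with 13-3B5xb12, was the largest difference of all 64, at -0.35 ± 0.19 log2 units (SE, unadjusted p = 0.0778, adjusted p = 1.00, edgeR). The 4 control values were 8.82, 10.9, 7.01 and 5.29 CPM and those of agrin with 13-3B5xb12 were 5.71, 6.35, 6.79 and 6.37 CPM. The control libraries alone thus spanned the whole range of the other group. Without control replicate 2 the difference was -0.16, and without control replicate 4 it was -0.50. Foxo3, which can drive Fbxo32 on its own, had treatment means between 56.4 and 61.0 CPM and differences within 0.10 log2 units of 0.

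Among the regulators and surface genes, Hdac4 came nearest to a difference. Its values were 42.6, 37.1, 30.2 and 24.7 CPM in replicates 1 to 4 of agrin with 13-3B5xb12. With 11-3F6xb12 in its place they were 24.4, 26.8, 29.3 and 26.7 CPM. The 2 groups overlapped, since replicate 4 of the first lay below 3 of the 4 libraries of the second. The log2 fold change, 11-3F6xb12 against 13-3B5xb12, was -0.33 ± 0.12 (SE, 95% interval -0.58 to -0.07), with an unadjusted p of 0.0133 and an adjusted p of 0.992 (edgeR). Without replicate 1 of agrin with 13-3B5xb12, a library that read long genes high, the difference was -0.19. Replicate 4 of that group, its lowest Hdac4 value, was the library with the lowest length slope. Without that replicate 4 the difference was -0.45 (unadjusted p = 0.000592, adjusted p = 0.866, edgeR). Hdac4 has the longest exon model of the 8 genes, 15813 bases, and the part of length in its values was not tested.

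Runx1 averaged 64.1 ± 10.2 CPM in control and between 56.7 and 60.6 CPM in the other 4 treatments. Replicate 2 of the control, at 79.4 CPM, stood above the other 3 control libraries at 58.4 to 59.8. Ncam1, which encodes a cell adhesion molecule spread over denervated fibres, averaged 201 ± 24.5 CPM in control and between 178 and 190.5 elsewhere. Gadd45a, a stress-induced gene upstream of fibre atrophy after denervation, averaged between 192 and 205 CPM, the narrowest spread of treatment means at 1.07-fold. A test over all 5 treatments at once gave unadjusted p values from 0.0858 for Hdac4 to 0.984 for Trim63 and an adjusted p of 1.00 for all 8 (edgeR). In that test 0% of all genes passed, and 329 genes had an unadjusted p under 0.05. With the replicate term, 0.0342% passed, none of them among the 8.

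**Figure D2:**
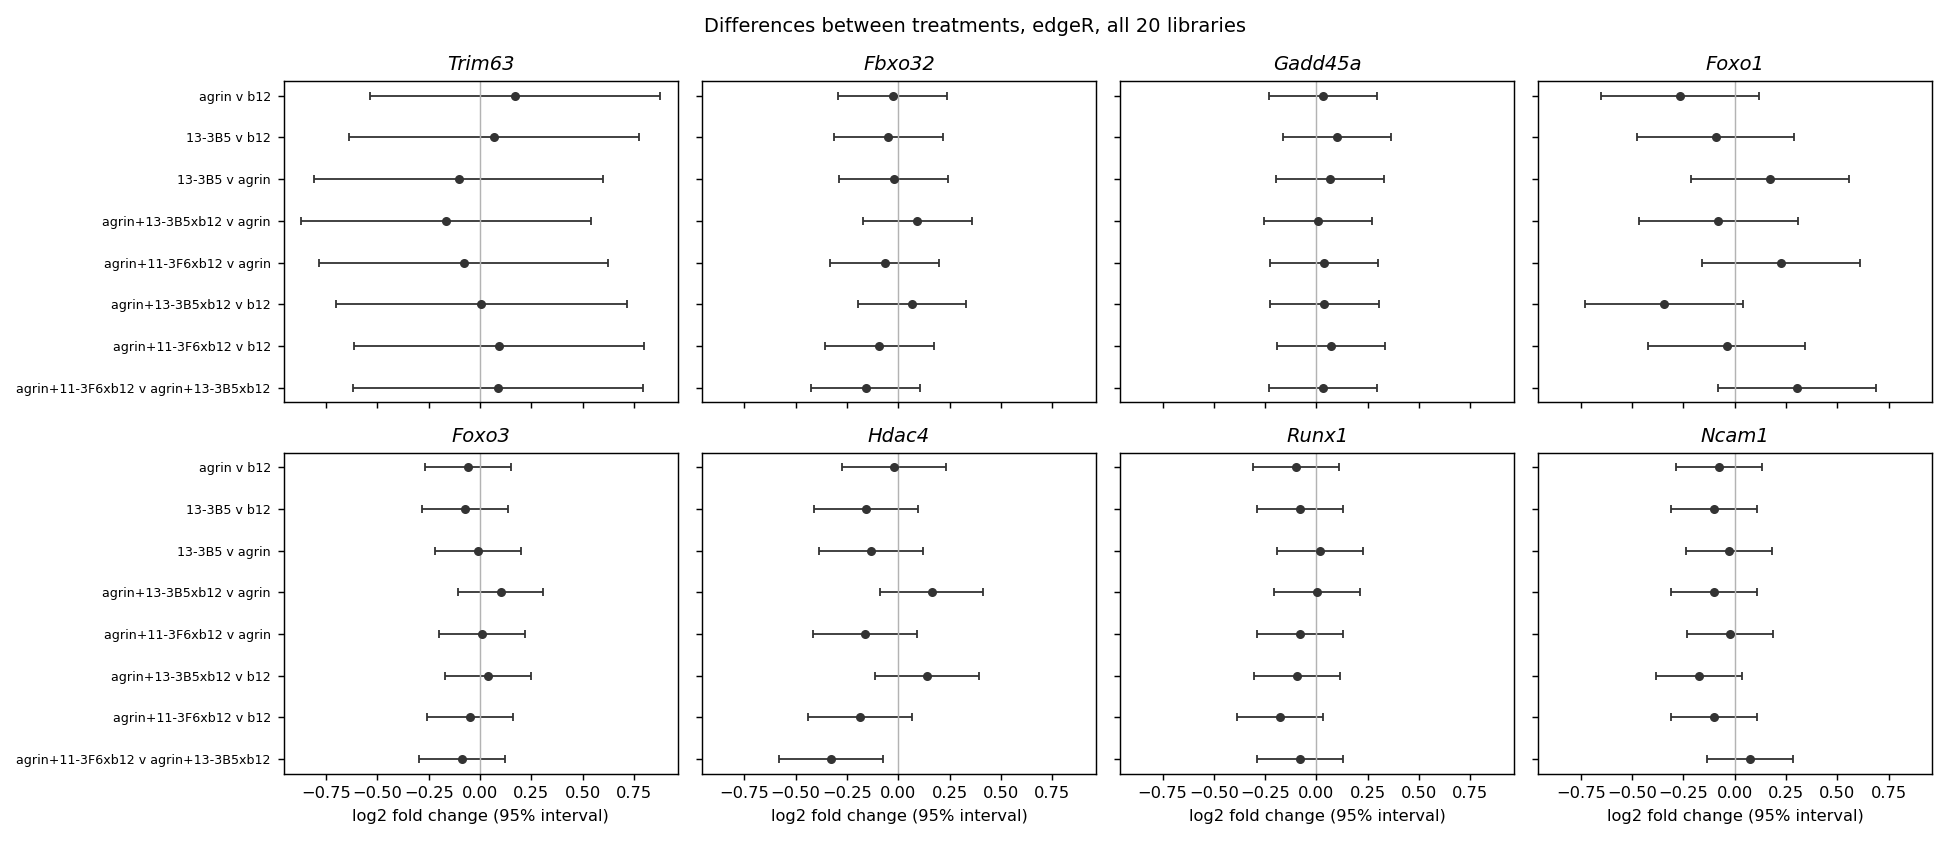
Log2 fold change of each of the 8 genes (points, with 95% intervals from the edgeR model) in the 8 treatment comparisons. Every interval but that of Hdac4 for 11-3F6xb12 against 13-3B5xb12, -0.58 to -0.07, includes 0, and the intervals of Trim63 are the widest.

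The second comparison set replicates 3 and 4 against replicates 1 and 2 within the treatments. What a replicate number stands for is not given in the labels. The split was known from an earlier principal component, a main axis of variation, of these same libraries. Its size over all genes is therefore a description. The p values of the 8 genes in it likewise describe a split already seen in these data and are not independent evidence for it. In it, 13.1% of all genes passed the threshold, 7.13% lower and 5.93% higher in replicates 3 and 4. Of the 8 genes, 4 passed: Trim63, Fbxo32 and Gadd45a fell, and Ncam1 rose. The median over the 8 genes was -0.10 log2 units, against 0.01 over all genes.

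Trim63 moved most. In replicates 1 and 2 it ran from 43.95 CPM over a median of 53.3 to 58.5, and in replicates 3 and 4 from 23.5 over 30.5 to 36.2, with no overlap. By treatment, replicates 1 to 4 read 53.9, 43.95, 23.5 and 36.2 CPM in control, 56.3, 47.2, 30.6 and 31.2 with the bivalent antibody, and 58.5, 57.8, 26.0 and 35.3 with agrin. With agrin and 13-3B5xb12 they read 50.0, 44.4, 29.1 and 34.8 CPM, and with agrin and 11-3F6xb12 56.2, 52.7, 30.4 and 28.8. In each of the 5 treatments replicates 3 and 4 lay below replicates 1 and 2, as they did in 2.26% of all genes. The log2 fold change was -0.76 ± 0.07 (SE, n = 10 libraries each, edgeR adjusted p = 1.15e-09), 0.589-fold, and Trim63 ranked 51 among the 14605 genes by p. The SE and p here and for the other genes of this comparison take the 10 libraries of a side as independent. If libraries of one replicate number share a run, the independent units are fewer, and the SE and p are too small.

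Fbxo32, the second ligase gene, fell by less. It ran from 67.1 CPM over a median of 75.1 to 84.9 in replicates 1 and 2 and from 56.0 over 60.3 to 65.5 in replicates 3 and 4, again without overlap. Such a full separation downward, all 10 below all 10, was seen in 1.14% of all genes. The log2 fold change was -0.32 ± 0.05 (SE, edgeR adjusted p = 2.64e-06). As Trim63 fell further, the ratio of Trim63 to Fbxo32 in CPM went from 0.697 ± 0.112 (SD, n = 10) to 0.508 ± 0.0612, with overlapping ranges of 0.541 to 0.871 and 0.400 to 0.602.

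Gadd45a ran from 185 CPM over a median of 217 to 238 in replicates 1 and 2 and from 157 over 185 to 199.7 in replicates 3 and 4. The ranges overlapped, and 4 of the 5 treatments separated. Its log2 fold change was -0.27 ± 0.05 (SE, edgeR adjusted p = 0.000240). Ncam1 went the other way, from a median of 175 CPM (159 to 229) to 200.4 CPM (168 to 229.7), with overlap and a log2 fold change of 0.17 ± 0.05 (SE, edgeR adjusted p = 0.0286). The Ncam1 call held in only 16 of 31 other settings of the analysis, with adjusted p up to 0.210 (edgeR) when the bivalent group was left out. Trim63, Fbxo32 and Gadd45a passed in 31 of 31, the fit without the 3 libraries that stood apart included.

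The remaining genes of the 8 did not pass. Hdac4 stood at -0.15 ± 0.07 (SE), Foxo3 at 0.09 ± 0.06, Foxo1 at -0.05 ± 0.12 and Runx1 at -0.01 ± 0.06 log2 units. Their edgeR adjusted p ran from 0.210 to 0.960. Without the 3 libraries that stood apart, Foxo3 rose by 0.16 log2 units (edgeR adjusted p = 0.0283), and 5 of the 8 genes passed.

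**Figure D3:**
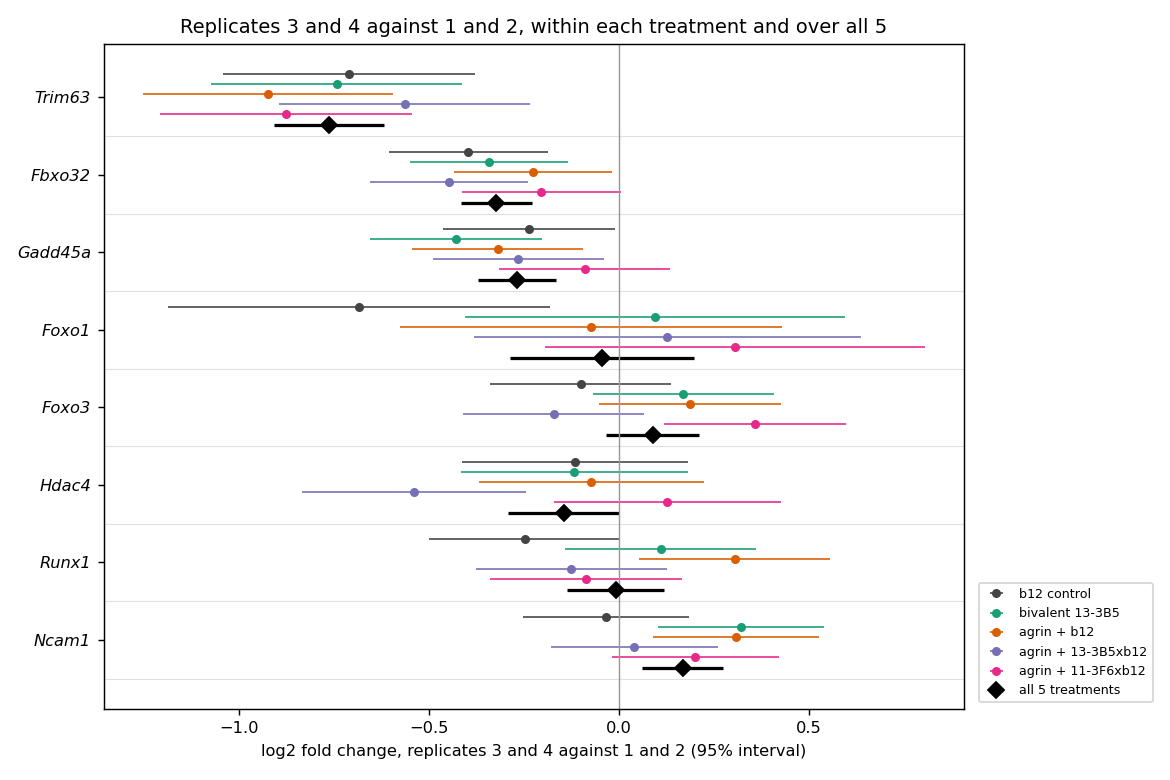
Log2 fold change of replicates 3 and 4 against 1 and 2 for each of the 8 genes, within each treatment and over all 5, with 95% intervals. Trim63 lies below 0 in every treatment, between -0.92 and -0.56, whereas Hdac4, Runx1, Ncam1, Foxo1 and Foxo3 lie on both sides of 0.

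Taken one treatment at a time, with 2 libraries against 2, Trim63 fell by 0.71 log2 units in control, 0.74 with the bivalent antibody, 0.92 with agrin and 0.88 with agrin and 11-3F6xb12 (edgeR adjusted p 0.0128, 0.0160, 0.00184 and 0.00318). With agrin and 13-3B5xb12 it had a value of -0.56 and missed the threshold (edgeR adjusted p = 0.0702). The share of all genes passing was 2.66% in control, 1.11% with the bivalent antibody, 1.32% with agrin, 1.78% with 13-3B5xb12 added to agrin, and 1.47% with 11-3F6xb12 added. Fbxo32 passed in control (-0.40) and in agrin with 13-3B5xb12 (-0.45), Gadd45a with the bivalent antibody (-0.43) and Hdac4 in agrin with 13-3B5xb12 (-0.54). Several of these calls needed all 4 libraries. Without replicate 3 of agrin Trim63 had a value of -0.72 there (edgeR adjusted p = 0.0727), and without control replicate 2 Trim63 still passed in control, at -0.85 (edgeR adjusted p = 0.0108). Fbxo32 stood at -0.34 in control without replicate 2 and at -0.42 in agrin with 13-3B5xb12 without replicate 1 (edgeR adjusted p 0.203 and 0.141). Hdac4 stood at -0.44 without replicate 1 and at -0.40 without replicate 4 of that group (edgeR adjusted p 0.426 and 0.461). Without that replicate 4, the Gadd45a call with the bivalent antibody, whose libraries were all kept, had an adjusted p of 0.0606 (edgeR). A test of whether the replicate difference varied between treatments called none of the 8 genes, with unadjusted p from 0.0178 for Foxo3 to 0.542 for Trim63 and adjusted p of at least 0.966 (edgeR). It called 1 of 14605 genes.

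The Hdac4 difference between the monovalent antibodies was also taken within each pair of replicates. Within replicates 1 and 2, 11-3F6xb12 against 13-3B5xb12 gave -0.64 ± 0.15 log2 units (SE, edgeR adjusted p = 0.0618), and within replicates 3 and 4 it gave 0.03 ± 0.15. The difference of the 2 values, 0.67 ± 0.21, had an unadjusted p of 0.00292 and an adjusted p of 0.546 (edgeR). Without replicate 1 of agrin with 13-3B5xb12, the value within replicates 1 and 2 was -0.54 ± 0.17 (edgeR adjusted p = 0.599). Without replicate 4 of that group, the value within replicates 3 and 4 was -0.11 ± 0.18. With all libraries, no gene of the 8 passed in a treatment comparison within either pair of replicates. Without control replicate 2, which is in neither group, this Hdac4 value in replicates 1 and 2 did pass (-0.64, edgeR adjusted p = 0.0221). The share of all genes passing in such comparisons was 0.13% for this one in replicates 1 and 2, 0.0137% in replicates 3 and 4 and 0.0137% for the difference. It was 0.00685% for agrin with 11-3F6xb12 against agrin in replicates 1 and 2, 0.00685% for it against control in replicates 3 and 4, and 0% in the rest.

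At an unadjusted p under 0.05, 17 of the 64 values stood out within replicates 1 and 2, where between 3.2% and 12% of all genes did so in a comparison. Within replicates 3 and 4 it was 2 of 64, against 2.75% to 4.81% of all genes. The 17 values all came from the 6 comparisons that involve the control or agrin with 13-3B5xb12, which hold 48 of the 64 values. Without control replicate 2 and replicate 1 of agrin with 13-3B5xb12, 5 of 64 were at that level within replicates 1 and 2, against 2.58% to 7.17% of all genes.

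Runx1 in replicates 1 and 2 was 59.8 and 79.4 CPM in control against 52.3 and 54.8 with agrin, a log2 fold change of -0.38 ± 0.12 (SE, edgeR adjusted p = 0.766). Without control replicate 2 it was -0.16 ± 0.13. In replicates 3 and 4 Runx1 was 58.4 and 58.8 CPM in control against 70.5 and 61.8 with agrin, a log2 fold change of 0.18 ± 0.12 (SE), and 0.07 ± 0.15 without agrin replicate 3, the library with a length slope of 0.170. The part of the length slopes in these values was not tested.

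Other measures moved with the same split, and their part in the results was not tested. The mitochondrial share of counts was 35.1 ± 2.70% (SD, n = 10) in replicates 1 and 2 and 30.3 ± 1.58% in replicates 3 and 4. This share includes mitochondrial ribosomal RNA left after depletion. The ribosomal RNA gene mt-Rnr2 alone reached 35.9% of a library and mt-Rnr1 reached 2.53%, so the share is not a measure of mitochondrial messenger RNA. The summed myotube markers ran from 15816 to 17716 CPM and from 13580 to 16572 CPM. Of the 11 marker genes 3 fell and 0 rose, with a median of -0.15 log2 units. Those that fell include Ckm, muscle creatine kinase, from 391 ± 42.5 to 238 ± 26.0 CPM, a log2 fold change of -0.72, and Tnnt3, fast troponin T, at -0.43. Other markers did not pass. Ttn stood at -0.26, Actn2 at -0.23 and Myh3 at -0.15 log2 units (edgeR adjusted p 0.117, 0.140 and 0.394). Des, the muscle filament desmin, was at -0.01, the actin gene Acta1 at -0.05 and Mylpf at -0.07. Myog was at 0.08 and Myh8, perinatal myosin, at 0.21 (edgeR adjusted p = 0.0529). Values of 9 of the 11 myotube markers were below 0 and 2 were above. The dividing-myoblast sum was 149 to 239 against 127 to 244 CPM. Of its 9 genes 1 fell, Ccnb1, cyclin B1, at -0.65 (edgeR adjusted p = 0.00263), and 0 rose. Values of 8 of the 9 were below 0 and Myf5 was at 0.30 (edgeR adjusted p = 0.0595), with a median of -0.36 over the list. Both marker counts stand beside the 13.1% of all genes that passed. In such cultures a smaller share of myotubes and less RNA per myotube cannot be told apart. Exon length did not follow the split, with a slope of -0.0063 log2 units per 10-fold of length over 11237 genes.

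Other genes of the same pathways were read from the same fits. In the treatment comparisons none passed (edgeR), and at most 3 genes of a list had an unadjusted p under 0.05 in any comparison. Between replicates, 19 denervation-responsive genes could be tested, of which 5 fell and 1 rose. Chrnd, the acetylcholine receptor delta subunit, fell from 140 ± 10.7 to 115 ± 4.36 CPM, while Cdkn1a, a cell cycle inhibitor, rose by 0.15 log2 units. The median of the 19 genes was -0.05 log2 units, and 3 of the listed genes, Myh3, Myh8 and Myog, are also on the myotube marker list.

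Of 21 other genes of muscle ubiquitin ligases and their machinery, 3 fell and 0 rose, with a median of -0.05. Cul1, the SCF scaffold that atrogin-1 works with, fell by 0.16 log2 units and Trim54, a close relative of Trim63, fell by 0.25. The third, Fbxo40, another muscle F-box gene, fell by 0.62, from 4.78 ± 1.24 to 3.09 ± 1.00 CPM. Of the 31 proteasome subunit genes, Psmb2 rose by 0.14 and Psmc6 fell by 0.14, no other passed, and the median was -0.02.

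Among 24 FoxO target and autophagy genes, 4 fell and 2 rose, with a median of -0.07. Map1lc3a, which encodes a protein of the autophagosome membrane, fell from 134 ± 15.3 to 95.3 ± 9.33 CPM, and Sesn1, a stress-induced regulator of mTORC1, fell by 0.27 log2 units. Cited2 and Ddit4, the latter an inhibitor of mTORC1 signalling, rose by 0.17 and 0.39. Of 29 upstream regulators tested, 4 fell and 1 rose, with a median of -0.02. Mef2c, a muscle transcription factor that HDAC4 binds, fell from 245 ± 16.7 to 186 ± 16.4 CPM, and Igf1, the growth factor that restrains FoxO through Akt, from 18.2 ± 4.25 to 8.22 ± 2.20 CPM. Nfkb1, a subunit of NF-κB, rose by 0.15. These counts are to be read against the 13.1% of all genes that passed in the replicate comparison.

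**Figure D4:**
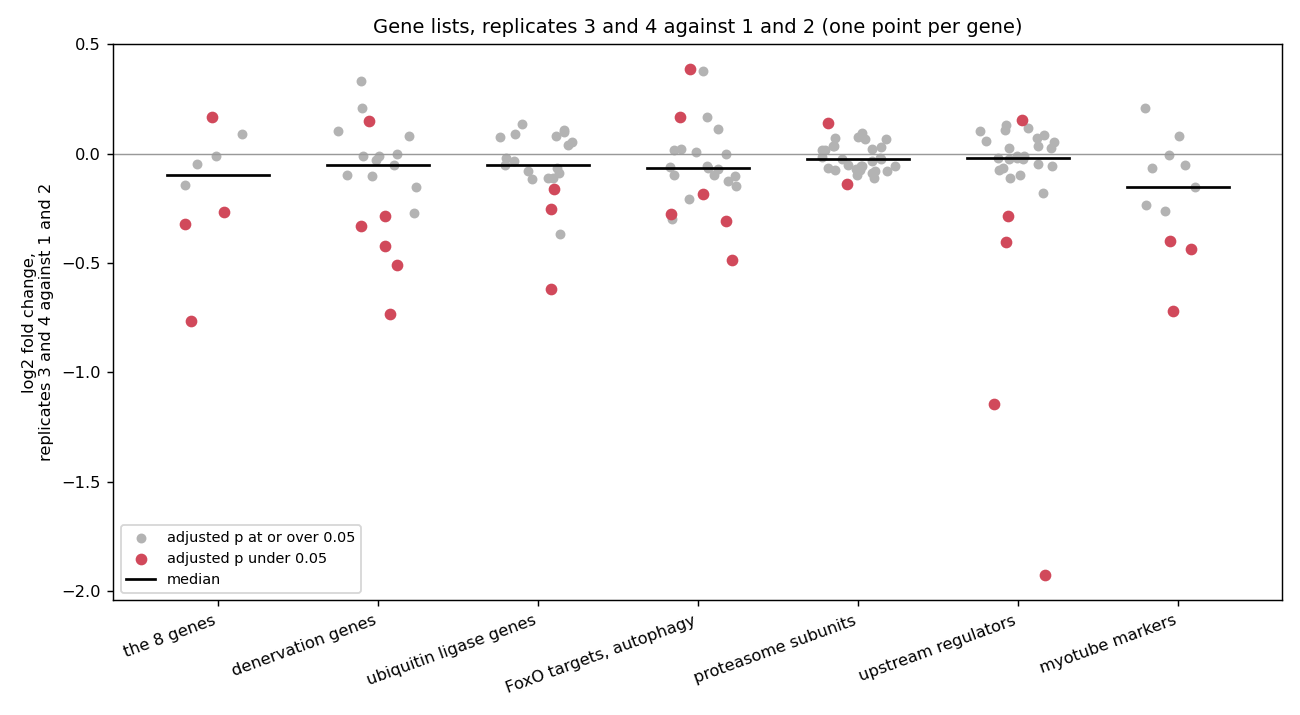
Log2 fold change of replicates 3 and 4 against 1 and 2 for every tested gene of each list (one point per gene, genes past the threshold in red), with Trim63 at -0.76 among the 8 genes. Called genes lie on both sides of 0 except among the ubiquitin ligase genes and the myotube markers, where all lie below, and the list medians (lines) run from -0.15 to -0.02.

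As a description over the 20 libraries and 11149 genes, the genes closest to Trim63 in log2 CPM were Myl2, Tnnt1 and Mb (Pearson r 0.969, 0.960 and 0.958), which encode a slow myosin light chain, slow troponin T and myoglobin. All libraries share the replicate split, so r was also taken inside it. In replicates 1 and 2 and in replicates 3 and 4, r was 0.721 and 0.859 for Myl2, 0.564 and 0.909 for Tnnt1, and 0.623 and 0.929 for Mb. Fbxo32 was closest to Egln3, Dusp27 and Myom3 (0.907, 0.903 and 0.896). Egln3 had an r of 0.671 in replicates 1 and 2 and 0.479 in replicates 3 and 4, whereas Dusp27 had 0.775 and -0.15, and Myom3 0.733 and -0.018.

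Gadd45a was closest to Tppp3, Hspb8 and Klhdc1 (0.946, 0.901 and 0.894), Ncam1 to Dclk1, Elmo2 and Gapvd1 (0.888, 0.868 and 0.863), and Foxo3 to Flnc, Ski and Tln1 (0.909, 0.882 and 0.878). Runx1 was nearest to Cplane1 (0.850), Hdac4 to Norad (0.834) and Foxo1 to A730056A06Rik, at only 0.693. Among the 8 genes themselves, 28 pairs were correlated inside each pair of replicates, 56 relations in all with permutation p values. Only Hdac4 with Foxo3 in replicates 1 and 2 passed after adjustment (r = 0.881, permutation p = 0.000820, adjusted p = 0.0459, 10 libraries). Spearman's rho was 0.830 there (permutation p = 0.00491, adjusted p = 0.136), and r without the 2 libraries farthest from the Hdac4 median was 0.783. Permutations ignored treatment. Foxo3 was highest, at 67.5 and 66.7 CPM, in replicate 1 of agrin with 13-3B5xb12 and replicate 2 of the control, which read long genes high. Hdac4 was 42.6 and 35.4 CPM in them. The r without both was not taken, and the part of length was not tested. No pair passed in both.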

How the data were processed

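Total RNA was sequenced in 20 libraries, 4 of each of 5 treatments. The authors deposited 1 table of whole-number counts per gene, not normalized. The submitters' processing notes name the GRCm38 build, Trim Galore 0.6.6, cutadapt 2.10, STAR 2.7.6a, HTSeq 0.12.4 and DESeq2 1.32.0, with no role or order, and the annotation release and strand setting are not given in the sources used here. Near-identical and overlapping genes may have been split in ways that cannot be reconstructed. Columns and groups follow the sample titles and treatment labels.

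Counts were fitted in R 4.3.3 with edgeR 4.0.16 (robust quasi-likelihood, TMM scaling, filterByExpr at its defaults of 10 counts and 15 in total). One model with treatment alone covered all 20 libraries, and a second added replicates 3 and 4 against 1 and 2. Each test was two-sided, with Benjamini-Hochberg adjustment across the 14605 genes and 0.05 as the threshold. The 10 groups of treatment and replicate pair gave within-pair values. Levels are CPM, intervals cover 95%, likeness used log2 CPM with a prior count of 2, and floors of 3 counts cover counting error only. The fits were also run on simulated counts with known changes. These counts were drawn independently for each library, so they do not show how shared replicate effects act on the fits. Alternatives were DESeq2 1.42.0, its size factors, no filter, 2-group fits, a replicate block and leaving out libraries. Promoters are RefSeq's. Of the 9 genes, 7 have an entry; Fbxo32 and Ncam1 have none.

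The members and lists were chosen with earlier results of these data known. All members are named. From each list, up to 2 called genes per direction with the smallest p are named, and for likeness the 3 genes of highest r. Of these, 1 gene is not reported here. Fbxo40 was named after its values were seen. Same-numbered libraries correlated by 0.195 on average in their deviations and libraries of the other number in the same pair by 0.201, and every same-numbered pair exceeded 0.1 in 4 of the 8 comparisons. The numbers come from the titles, which do not say what they share. The block is therefore given as an alternative.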

Additional observations from a re-analysis of the deposited data

Results flagged for a closer look

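Runx1 in control replicate 2 was 79.4 CPM, whereas the other 3 control libraries lay between 58.4 and 59.8 CPM. The gap made up 0.935 of the range of the 4 libraries, above Dixon's critical value at 95% for 4 values. In all, 40 groups of 4 libraries were examined, and chance flags about 5% of them. This library also read long genes high.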

How the results depend on the processing

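In the treatment comparisons not split by replicate pair, 0 of the 8 genes passed under every alternative run. Leaving out 1 library at a time gave adjusted p of at least 0.745 and the other settings at least 0.560 (edgeR or DESeq2), and the sign of these small differences changed in 82 of 512 and 16 of 512 values. The number of all genes passing, 0 in each comparison, moved in some settings. With the replicate block it was 2 for agrin with 11-3F6xb12 against agrin, 3 for it against control and 5 for it against agrin with 13-3B5xb12. With replicates 3 and 4 as a term these were 2, 3 and 10, and DESeq2 gave 2 in the last comparison. Without a filter on low counts the counts were 4 for agrin against control, 2 for bivalent against control, 7 for bivalent against agrin, 6 and 13 for agrin with 13-3B5xb12 and with 11-3F6xb12 against agrin, 3 and 13 for the same groups against control, and 27 between them. Under the block, Hdac4 between the monovalent antibodies was -0.31 ± 0.12 log2 units (SE, edgeR adjusted p = 0.640). The block changed no call of the 8 genes between treatments, and 11 of the 20 libraries correlated best with their own number.

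Between replicate pairs, 1908 genes passed, and 1651 to 2101 did when 1 library was left out; other settings gave 1371 to 2571, the highest without the 3 libraries that stood apart, an alternative chosen after seeing the data. Leaving out 1 library left 3 to 4 of the 8 genes passing. The call of Ncam1 was lost in 12 of 20 such fits (adjusted p 0.0506 to 0.0681, edgeR) and without the bivalent, agrin or agrin with 11-3F6xb12 group (0.210, 0.154 and 0.122). The cause was not tested. Depth limits Foxo1 most. The treatment intervals of Trim63 reach from 0.547-fold to 1.84-fold, and its SE fell to 0.11 log2 units with the replicate term. Values within replicate pairs, without single libraries, were also chosen after seeing the data.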
